A study of Mus musculus with 2 samples.

Results

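The regions described here are wide hotspots found in both libraries of a DNase-seq experiment on mouse frontal cortex. A hotspot is a continuous domain in which cleavage by the enzyme DNase I is raised over the surrounding DNA, and DNase I cuts where chromatin is open. A hotspot of replicate 1 was a member if it lay on an autosome, measured at least 2000 bp from start to end, and overlapped by 1 bp or more a hotspot of replicate 2 that also measured at least 2000 bp. There were 524 members among 74378 autosomal hotspots of replicate 1. Their widest replicate 2 partners were 522 distinct hotspots, out of 88424 autosomal ones. Hotspots on all chromosomes numbered 76696 in replicate 1 and 91160 in replicate 2. Members were selected on measured width in both libraries, so width, strength, peaks and footprints are given as descriptions of these libraries with no test.

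The experiment holds 1 group of 2 biological replicates and no second condition. Both are frontal cortex of male B6CASTF1/J mice at 10 days of age, offspring of a cross between the C57BL/6J and CAST strains, with no treatment given in the labels. A label note mentions 3 males per sample without saying whether tissue was pooled, and both samples carry the same donor entry, so the spread between the libraries may be technical. Library totals are not among the files used here, and the spacing of the deposited densities puts replicate 2 at 1.64 times the depth of replicate 1. Of 6 autosomal neuron markers, all 6 had a transcription start site (TSS) inside a hotspot in each library, whereas 0 of 3 liver and 0 of 3 muscle markers did. Astrocyte markers were found in hotspots for 5 of 5 genes in replicate 1 and 3 of 5 in replicate 2, oligodendrocyte markers for 1 and 3 of 3, microglia markers for 2 of 4 in each library and endothelial markers for 1 of 3 in each. Over all autosomal coding genes, 12965 of 20807 had a TSS in a replicate 1 hotspot, so such counts for a few markers are weak evidence of cell types. None of these marker genes had a TSS inside a member, where the share over all autosomal coding genes was 2.79%. In the longer gene lists used below, 1 of 10 liver genes had a TSS in a hotspot in each library. Of 10 skeletal muscle genes, 3 had one in replicate 1 and 1 in replicate 2. In a tissue of several cell types, more open cells and more open chromatin per cell cannot be told apart.

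As background, most accessible sites in mammalian chromatin are short, about the length that a nucleosome or a cluster of bound factors clears. Promoters that lie in CpG islands, stretches where the CpG dinucleotide has escaped the depletion seen in most of the genome, tend to be accessible in many cell types. Regulatory genes whose transcription responds quickly to signals, or is controlled during development, often have long CpG islands with several separate accessible elements around the TSS.

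To show what the DNA at the members looks like, the sequence at the strongest replicate 1 peak is printed for 5 of the widest members and for the pair with no TSS inside and the least CpG. Sequences are from the GRCm38.p6 reference (mm10), run 5′ to 3′ on the strand of the named gene, leave out annotated untranslated regions, and show each CpG dinucleotide in capitals. The pair with little CpG was chosen after its values were seen. The stretches lie at chr1:82291417-82291560 (Irs1, minus strand), chr1:86526371-86526570 (Ptma, plus strand), chr19:61226131-61226330 (Csf2ra, minus strand), chr2:152398121-152398320 (Sox12, minus strand), chr15:38300801-38301000 (Klf10, minus strand), chr17:3081741-3081940 (near Pisd-ps2, minus strand) and chr8:126666451-126666650 (nearest TSS of Irf2bp2, minus strand).
Irs1: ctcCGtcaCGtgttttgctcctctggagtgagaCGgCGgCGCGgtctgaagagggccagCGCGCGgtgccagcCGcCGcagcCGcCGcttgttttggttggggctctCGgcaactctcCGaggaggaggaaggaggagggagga
Ptma: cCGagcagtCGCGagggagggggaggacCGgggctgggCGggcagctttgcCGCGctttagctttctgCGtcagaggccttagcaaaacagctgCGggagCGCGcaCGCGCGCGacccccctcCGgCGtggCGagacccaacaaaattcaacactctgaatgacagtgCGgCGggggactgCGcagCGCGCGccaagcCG
Csf2ra: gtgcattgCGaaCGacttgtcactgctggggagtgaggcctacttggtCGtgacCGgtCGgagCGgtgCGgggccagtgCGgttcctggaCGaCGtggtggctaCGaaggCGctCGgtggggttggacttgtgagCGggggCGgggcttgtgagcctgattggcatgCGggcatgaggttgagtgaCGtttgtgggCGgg
Sox12: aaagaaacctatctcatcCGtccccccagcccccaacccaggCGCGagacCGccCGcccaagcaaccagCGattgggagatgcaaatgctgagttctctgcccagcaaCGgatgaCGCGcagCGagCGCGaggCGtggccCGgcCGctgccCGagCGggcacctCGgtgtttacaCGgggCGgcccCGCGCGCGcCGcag
Klf10: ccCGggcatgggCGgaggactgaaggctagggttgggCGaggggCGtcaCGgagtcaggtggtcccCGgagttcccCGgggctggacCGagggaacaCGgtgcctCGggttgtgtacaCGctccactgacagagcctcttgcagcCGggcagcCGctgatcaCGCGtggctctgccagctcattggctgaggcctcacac
Pisd-ps2: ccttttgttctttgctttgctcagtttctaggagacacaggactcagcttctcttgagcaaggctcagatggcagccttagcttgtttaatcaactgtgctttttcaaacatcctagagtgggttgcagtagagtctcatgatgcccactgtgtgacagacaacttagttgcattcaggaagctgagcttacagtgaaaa
Irf2bp2: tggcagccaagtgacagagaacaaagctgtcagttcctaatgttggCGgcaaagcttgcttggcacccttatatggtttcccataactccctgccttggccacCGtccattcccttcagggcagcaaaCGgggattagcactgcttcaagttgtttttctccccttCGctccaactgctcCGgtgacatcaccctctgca
The 5 stretches printed here from the widest members held 15 to 25 CpG dinucleotides each, with the lowest count of these 5 at Irs1 and Klf10 and the highest at Ptma and Sox12. The Irs1 stretch was shorter, at 144 bp, where the others had 200 bp. Per 100 bp there were 7.5 at Klf10, 9 at Csf2ra, 10.4 at Irs1 and 12.5 at Ptma and Sox12. The stretch near Pisd-ps2 held 0 and the one nearest Irf2bp2 held 5. The pentamer CCAAT, read on both strands, was present at Csf2ra, Sox12 and Klf10, and the GC box GGGCGG at those 3 and at Ptma. These letters are matches and not shown to be bound.

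The members had a median width of 2352 bp in replicate 1 and 2381.5 bp in replicate 2, whereas all autosomal hotspots had medians of 358 and 340 bp. Their edges were set in nearly the same place in both libraries: of 1048 member edges, 606 (57.8%) lay within 50 bp of the edge of the partner hotspot, 899 (85.8%) within 200 bp, and the median distance was 38.5 bp. In 414 members (79.0%) the hotspots of the libraries overlapped by at least 90% of the wider one. The replicate 2 hotspot was the wider one in 308 members, the replicate 1 hotspot in 211, and 5 had equal widths. Across the 524 members Spearman's rho between the widths was 0.759, a description over regions that were cut at the same threshold in both libraries.

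**Figure D1:**
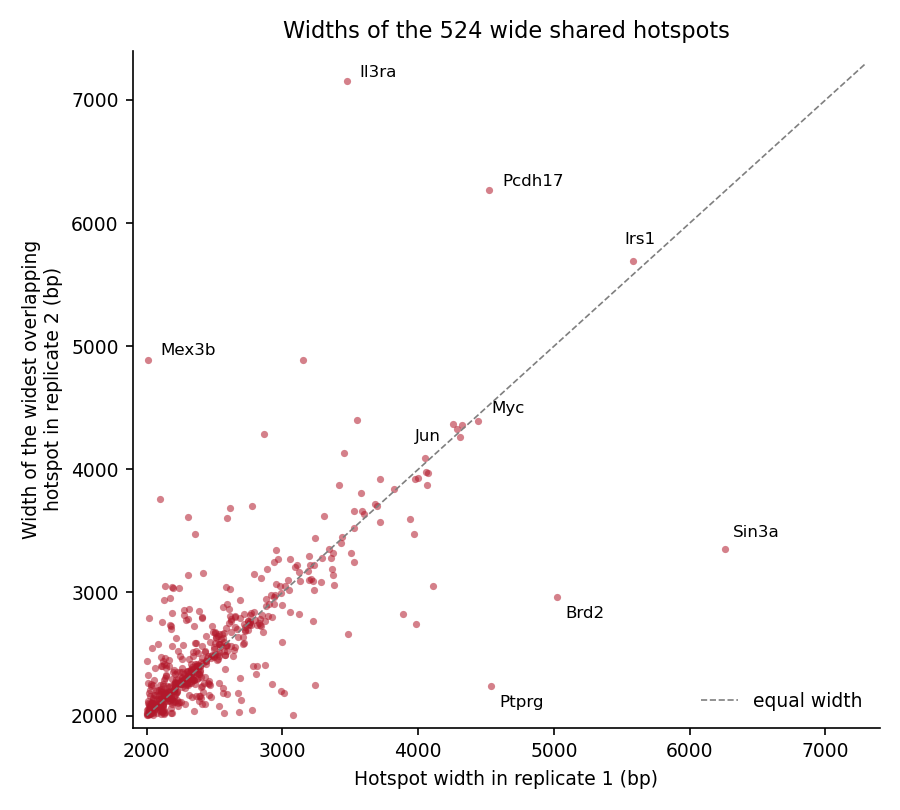
Width of each of the 524 members in replicate 1 (x axis, bp) and of its widest overlapping hotspot in replicate 2 (y axis, bp), 1 point per member, with the dashed line at equal width. Most points follow the line, and the few far from it include Il3ra, Pcdh17 and Mex3b above it and Sin3a, Brd2 and Ptprg below it.

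In 9 members the widths differed by more than 1.5 times, and each of the 9 was a single hotspot in 1 library and split by gaps of 7 to 217 bp in the other. At Sin3a, which encodes a scaffold protein of histone deacetylase complexes, the member measured 6257 bp in replicate 1 and its partner 3350 bp in replicate 2. There a gap of 75 bp separated that partner from a further replicate 2 hotspot of 2782 bp, and the summed length was 6132 bp. At Brd2, a bromodomain reader of acetylated histones, the widths were 5021 and 2959 bp, and a gap of only 7 bp set off a further replicate 2 hotspot, for a summed length of 4958 bp. At St3gal1, a sialyltransferase, the widths were 3079 and 2007 bp and the gap 30 bp. Ptprg, a receptor tyrosine phosphatase, had 4533 bp in replicate 1 and 4 replicate 2 hotspots summing to 3920 bp.

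Splits in replicate 1 were of the same kind. Il3ra, the alpha chain of the interleukin 3 receptor, lay in a single replicate 2 hotspot of 7153 bp, against 5 replicate 1 hotspots of 6878 bp in all with gaps of 35 to 71 bp. Mex3b, an RNA-binding protein gene, had 1 replicate 2 hotspot of 4891 bp, against replicate 1 hotspots of 3154 and 2008 bp separated by 27 bp. Both of these replicate 1 hotspots are members and share that partner. Spry2, an inhibitor of receptor tyrosine kinase signalling, had 3609 bp in replicate 2, against 2304 and 1171 bp in replicate 1. Mycn, a relative of Myc, also contributed 2 members that share 1 replicate 2 hotspot, and 1 of the 2 touched it by only 14 bp.

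Of 787 autosomal hotspots of replicate 1 that reached 2000 bp, 263 were not members. None of these lacked a replicate 2 hotspot, and 212 of them overlapped 2 or more, the widest with a median width of 1500 bp. Of 683 such hotspots of replicate 2, 159 met no member, and 1 of the 159 overlapped no replicate 1 hotspot at all. At the threshold itself, the members just inside were G3bp1 (2000 and 2011 bp in replicates 1 and 2), Ggnbp2 (2047 and 2001 bp) and Picalm (2001 and 2003 bp). Just outside were Apba1 (2002 bp in replicate 1 and 1 bp short of the threshold in replicate 2), Zfp664 (2337 and 1998 bp) and Pgrmc2 (2093 and 1998 bp).

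Strength varied widely among members. The highest −log10 FDR in a hotspot, the authors' own value, had a median of 49 in replicate 1 and 42.2 in replicate 2 at members, whereas it was 3.36 and 3.06 over all autosomal hotspots. In replicate 1 the median was 35.2 in other TSS hotspots from 1000 bp to under 2000 bp, and 24.5 in hotspots wide in replicate 1 only. The lowest and highest −log10 FDR over members were 4.76 and 299.5 in replicate 1, and 4.39 and 266.5 in replicate 2. Width and strength were almost unrelated among members, with a rho of 0.0481 in replicate 1 and 0.0829 in replicate 2, while strength in the libraries had a rho of 0.927. Pcdh7 is an example of a wide and weak domain, at 3196 and 3097 bp with −log10 FDR of 8.39 and 8.84 in replicates 1 and 2. Hsp90b1, a chaperone of the endoplasmic reticulum, is narrower and strong, at 2150 and 2241 bp with 207.5 and 178.8.

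Members are next given in order of the smaller of the 2 widths. Irs1, the insulin receptor substrate that passes insulin and insulin-like growth factor signals on, had 5579 bp in replicate 1 and 5692 bp in replicate 2. Its annotated TSS lay near one end, with edges at −1010 and 4568 bp in replicate 1 and at −964 and 4727 bp in replicate 2. Irs1 held 4 peaks in replicate 1 and 7 in replicate 2. The densest peak sat at the TSS, at 4.16 in replicate 1 and 2.08 in replicate 2, in units of the authors' depth-normalised cleavage density. Its member was less rich in CpG than most, with an observed over expected ratio of 0.514.

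Pcdh17, a non-clustered protocadherin that works in cell adhesion between neurons, had 4525 bp in replicate 1 and 6269 bp in replicate 2 and 9 peaks in each library within the replicate 1 interval. The TSS inside the replicate 1 hotspot is an internal one. The annotated gene start lay at −4944 bp from it, outside the replicate 1 hotspot, which reached to −4317 bp, and inside the replicate 2 hotspot, which reached to −5985 bp. The −log10 FDR of the 2 hotspots was 6.62 and 69.8. Within the replicate 1 interval the peaks were of like density, the densest at 1.33 in replicate 1 and 0.988 in replicate 2. The added length in replicate 2 held a denser peak, at 5.56, over the gene start.

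Myc, the growth-promoting transcription factor, spanned 4444 and 4390 bp with 7 and 8 peaks in replicates 1 and 2. Ptma, which encodes the abundant nuclear protein prothymosin alpha, spanned 4320 and 4357 bp with only 3 and 4 peaks. At Ptma the peaks were dense: the strongest reached 17.1 in replicate 1 and 12 in replicate 2, and another peak further upstream 15.1 and 9.43. Csf2ra, the alpha chain of the granulocyte-macrophage colony-stimulating factor receptor, spanned 4288 and 4330 bp with 6 and 8 peaks. Jun, a subunit of the AP-1 factor, spanned 4311 and 4261 bp. Its strongest peak lay at the TSS with a density of 16 in replicate 1 and 15.5 in replicate 2, and a second peak upstream had 5.45 and 4.53.

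The next in width were Sox12 (4258 and 4371 bp in replicates 1 and 2), a SOX factor of group C, Klf10 (4048 and 4091 bp), a Kruppel-like factor, and Ing1 (4059 and 3977 bp), a reader of methylated histone H3. Smarca2, an ATPase of the BAF remodelling complex, had 4070 and 3966 bp. Hivep2, a large zinc finger factor, had 3998 and 3932 bp, and the cell cycle kinase gene Cdk6 3979 and 3921 bp. Ing1 had the densest peak of these 12 in replicate 1, at 21.9, with 15.5 in replicate 2, where Jun had the same value, whereas the densest peak of Cdk6 had 1.87 and 1.23.

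**Figure D2:**
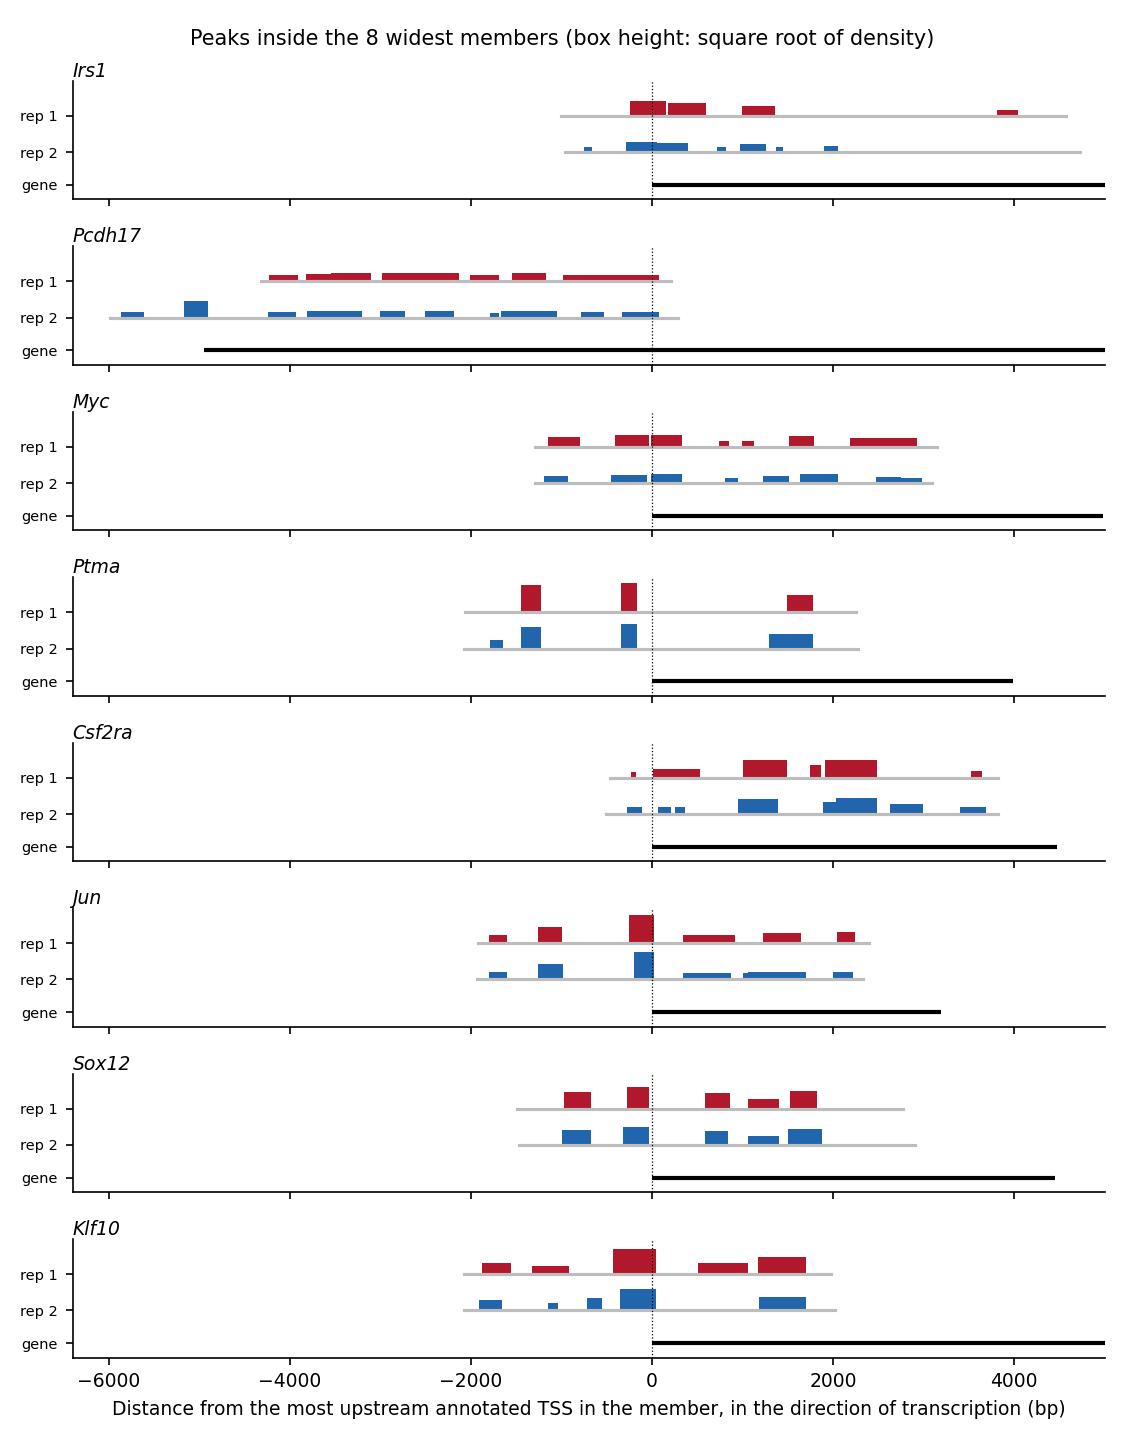
Maps of the 8 widest members: grey lines are hotspots, boxes are main-list peaks (height is the square root of cleavage density; red replicate 1, blue replicate 2) and black lines the annotated gene, against distance in bp from the most upstream annotated TSS inside the replicate 1 hotspot. Many peaks recur at the same places in both libraries and some are in 1 library only, as at Irs1, and the densest box of Jun lies at the TSS and those of Ptma upstream of it.

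Main-list peaks, those holding a base with an FDR under 0.001, averaged 3.49 per member in replicate 1 and 3.73 in replicate 2 over the replicate 1 intervals. TSS hotspots of replicate 1 from 1000 bp to under 2000 bp, used here as the nearest comparison (5789 regions), averaged 1.62 and 1.66. A wider region has room for more peaks, and per kilobase the members had 1.38 and 1.48 against 1.20 and 1.23. Members with 3 or more peaks numbered 384 in both libraries at once. Of the replicate 1 peaks in members 89.4% overlapped a replicate 2 peak, against 86.0% in the comparison hotspots and 80.9% over all autosomal hotspots. In hotspots wide in replicate 1 only the share was 73.3%. The rule asked for a wide replicate 2 hotspot at members alone, so these shares are not on equal terms. Some peaks of the list overlap each other, which concerned 213 of 1828 member peaks in replicate 1 and, over the replicate 2 intervals, 213 of 1971 in replicate 2. Joining them lowered the replicate 1 mean to 3.27.

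Peaks in members covered 39.3% of the bases in replicate 1 and 40.3% in replicate 2, against 31.2% and 30.7% in the comparison hotspots. Where a hotspot held 2 or more peaks, neighbouring midpoints lay a median of 540 bp apart in replicate 1 and 514 bp in replicate 2 in members, against 470 and 460 bp. The strongest peak carried a median of 55.6% and 52.6% of the summed peak density in members, against 67.9% and 66.6% in the comparison hotspots, where fewer peaks share the sum. Over all member bases, in peaks and between them, 69.9% had an FDR under 0.001 in replicate 1, against 62.3% in the comparison hotspots. This is more than the 39.3% of member bases in peaks, so some of these bases lay between peaks. Bases between peaks were not counted separately, and peaks also covered less of the comparison hotspots. The members with the most peaks found in both libraries were Pcdh17 and Jade2, with 9 shared peaks each. Marcks, a substrate of protein kinase C in neurites, and Sin3a had 8, and Il3ra and Efna5, an ephrin ligand for axon guidance, had 7. At each of these members some of the replicate 1 peaks counted overlapped each other, so separate stretches were fewer.

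Igsf8, an immunoglobulin superfamily membrane protein, had 2358 and 2588 bp but 0 main-list peaks in replicate 1 and 1 in replicate 2, with −log10 FDR of 9.36 and 11. Only 1 other member lacked a peak in a library, the one at Gm47204, with 0 in replicate 2.

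Footprints are short stretches protected from cleavage inside open DNA, where a bound factor may cover the site. Members held 7913 footprints in replicate 1 and 9634 in replicate 2, or 5.98 and 7.28 per kb, against 6.06 and 6.73 in the comparison hotspots. Inside peaks members had 10.8 and 12.6 footprints per kb, against 14.4 and 15.2. Outside peaks the order was the other way round, with 2.87 and 3.71 per kb in members, against 2.29 and 2.97.

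An annotated TSS lay inside 510 of 524 members (97.3%), against 20.4% of all autosomal hotspots of replicate 1. The share climbed with width in the other hotspots too, with 5.70% under 500 bp, 41.4% between 500 and 1000 bp, 87.2% between 1000 and 1500 bp and 94.4% between 1500 and 2000 bp. It was 96.2% in hotspots wide in replicate 1 only. Members with a TSS had a median of 4 distinct TSS positions, against 3 in the comparison hotspots, and 200 members had 5 or more. TSSs on both strands lay in 35.3% of members with a TSS, against 27.0%, and 2 or more coding genes in 15.5%, against 13.5%. A wider region has room for more TSSs. TSS hotspots wide in replicate 1 only had a median of 3 positions, both strands in 34.8% and 2 or more coding genes in 8.7%. Genes other than coding ones with a TSS in a member included 37 lincRNA, 36 antisense and 15 miRNA genes. Members lay on all 19 autosomes, with 17 on chromosome 15 and 41 on chromosome 5 as the fewest and the most.

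**Figure D3:**
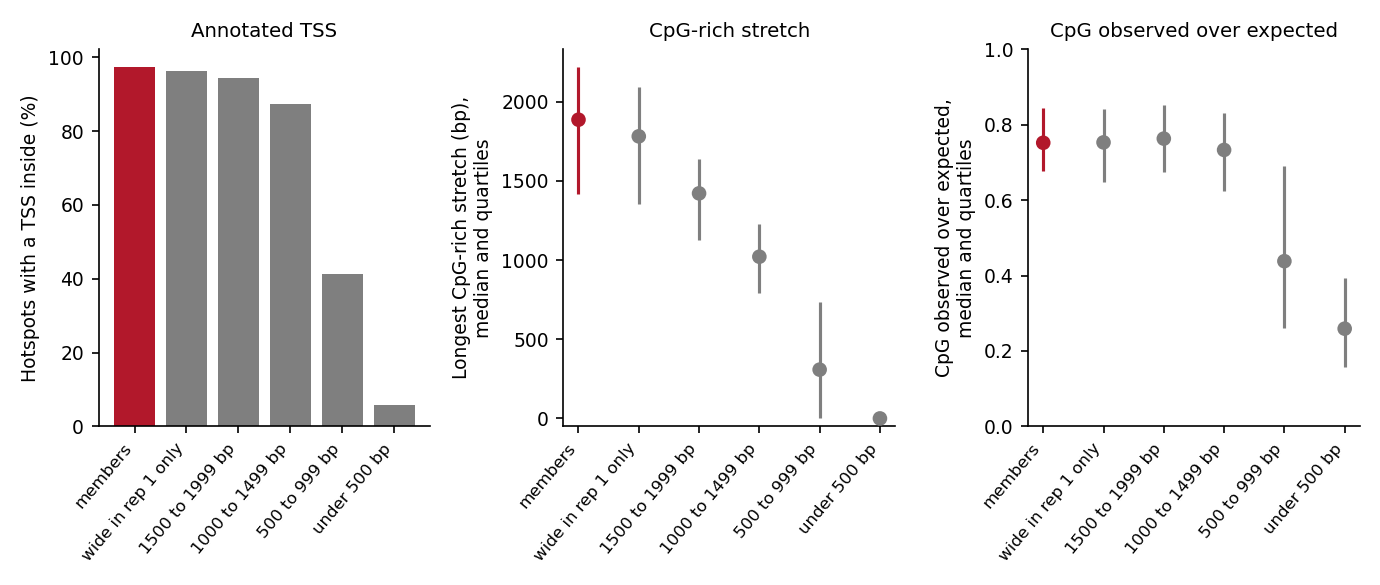
Members (red) and the other autosomal hotspots of replicate 1 by width (grey): share with a TSS inside, longest CpG-rich stretch and CpG observed over expected (points are medians, bars span the quartiles). Members and hotspots between 1500 and 2000 bp differ in the length of the CpG-rich stretch and hardly in the ratio. Hotspots wide in replicate 1 only are near members in both.

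Members were rich in CpG, to about the same degree as the comparison hotspots. The median CpG observed over expected was 0.752 in members, against 0.757 in the comparison hotspots and 0.308 over all autosomal hotspots. GC content had medians of 62.5% and 61.7% in members and comparison hotspots. The length of CpG-rich DNA differed more. A CpG-rich stretch, taken as the union of 200 bp windows with GC over 50% and a ratio over 0.6, had a median length of 1886 bp for the longest one touching a member, against 1123 bp. A wider region can touch longer stretches, and in hotspots wide in replicate 1 only the median was 1781 bp. The stretches covered a median of 86.3% of the member, 86.8% of the comparison hotspot and 86.1% of hotspots wide in replicate 1 only. Among members, width had a rho of −0.0945 with the ratio and of 0.364 with the longest stretch.

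The highest ratios were at Tent4a, a poly(A) polymerase gene (1.07), Hnrnpa0 (1.03), and Pds5a and Erbin (1.01 each). The lowest were near Pisd-ps2 (0.212), at the site nearest Irf2bp2 (0.237), at Spaca6 (0.308) and at Igsf8 (0.399), the only 4 members at 0.4 or lower. Repeats made up 26.3% of the Pisd-ps2 member and 26.8% of the Spaca6 member, against a median of 8.30% over members, and the placing of reads from repeats was not examined.

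Members reached further on both sides of the TSS, and in most of them the longer side was downstream of the most upstream TSS. The greater reach follows from the rule, since members were 2000 bp or wider and comparison hotspots narrower. In 330 members with TSSs on 1 strand only, the replicate 1 hotspot extended a median of 855 bp upstream and 1579 bp downstream of the most upstream TSS, against 472 and 804 bp in 4228 comparison hotspots. The longer side was downstream in 249 of the 330 members (75.5%), against 79.0% of the comparison hotspots, so the proportions were much the same. In replicate 2 the medians were 887 and 1558 bp in 327 member intervals, against 491 and 786 bp in 3606 comparison hotspots. The most upstream TSS as anchor favours the downstream side where a hotspot holds several TSSs. From the TSS nearest the strongest peak, the longer side was downstream in 63.2% of 329 members in replicate 1, against 72.1% of 4153 comparison hotspots. The median share of the hotspot downstream was then 57.2%, against 59.1%, whereas from the most upstream TSS it was 65.5%, against 62.9%.

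A peak lay over the 100 bp just upstream of the TSS in 62.7% of members in replicate 1 and 63.3% in replicate 2, against 72.5% and 71.1% of the comparison hotspots. In the bin that starts 700 bp downstream the shares were 43.0% and 38.5% in members, against 13.6% and 13.7%. Between these, in the bin at 200 bp, the comparison hotspots had 23.9% and 22.6%, and in the bin at 400 bp 24.4% and 23.3%. Members had 34.8% and 34.5% in the bin at 200 bp, so that their profile had a dip and a second rise. Part of this follows from the rule, since 97.3% of the member hotspots still covered the bin at 700 bp in replicate 1, against 62.9% of the comparison hotspots. Footprints in members had no dip at 200 bp. They fell to 3.85 and 5.55 per kb in the bin at 400 bp in replicates 1 and 2. In the bin at 800 bp they had 4 and 6.48, a rise mainly in replicate 2. Footprints were also denser in members, at 4.03 and 5.70 per kb in the bin at 700 bp, against 1.78 and 2.44.

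**Figure D4:**
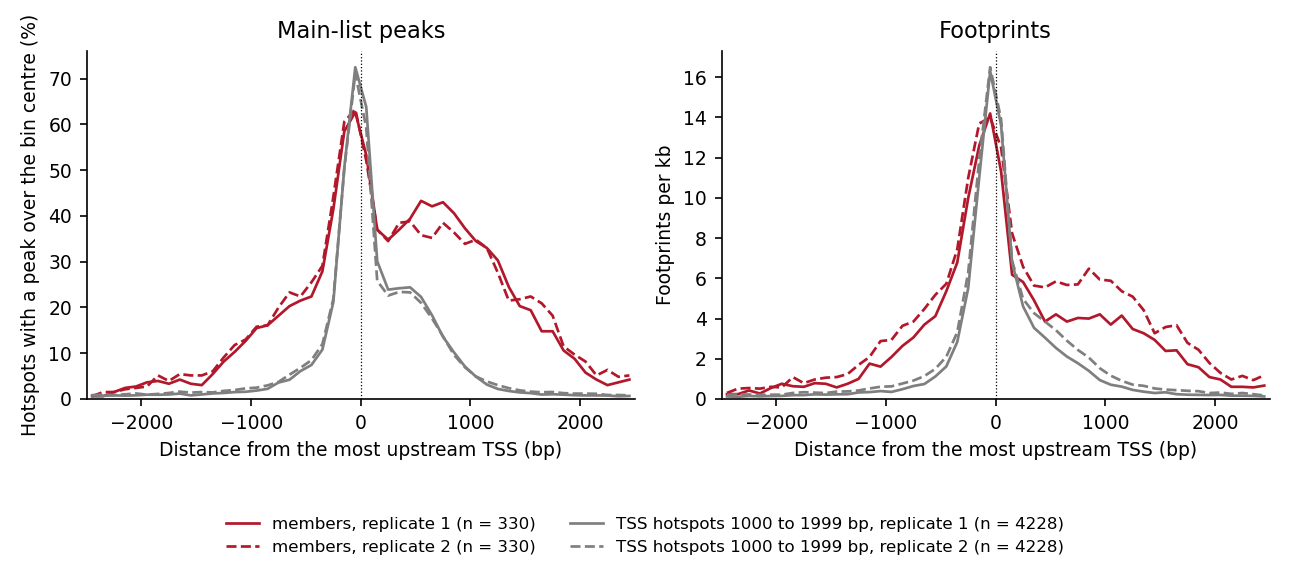
Share of hotspots with a peak over the centre of each 100 bp bin (left, %) and footprints per kb (right) against distance from the most upstream TSS in the direction of transcription, for 330 members (red) and 4228 TSS hotspots of 1000 bp to under 2000 bp (grey), solid for replicate 1 and dashed for replicate 2. Members have a lower summit at the TSS and a broad shoulder that reaches past 1000 bp downstream.

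Peaks in members fell more often in introns and coding sequence than peaks in the comparison hotspots. In replicate 1, 35.4% of member peaks had their midpoint in an intron and 12.9% in coding sequence, against 27.6% and 6.88% of peaks in the comparison hotspots. UTRs held 17.7% of member peaks, against 25.5%, and 26.0% lay outside genes, against 31.9%. In replicate 2 the intron share was 35.7%, against 29.0%, and the coding share 12.1%, against 6.40%. Of the bases in replicate 1, introns made up 37.2% in members, against 35.3%, and coding sequence 12.3%, against 9.88%. Member peaks were thus placed about as member bases were, while peaks of the comparison hotspots lay below the share of bases in both.

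The member genes were long. Single-exon genes were a larger share of them than at the comparison hotspots, but not than over all coding genes. Coding genes with a TSS in a member had a median length of 48255.5 bp, against 31711.5 bp for the comparison hotspots and 17629 bp for all autosomal coding genes. Genes whose largest coding transcript has a single exon made up 29 of 580 (5.01%), against 2.24% in the comparison hotspots and 5.74% of all coding genes. Whole coding genes lay inside members in 5 cases, among them Hist1h1e, a linker histone gene of 1930 bp.

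In all, 580 of 20807 autosomal coding genes had a TSS in a member, which is 2.79%, and 4.47% of the 12965 coding genes with a TSS in any replicate 1 hotspot. Gene lists are read against these shares. The lists and families were chosen with earlier results of these data known, their genes are not independent, and no set test was run.

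A list of signalling regulators, made up mostly of feedback inhibitors with insulin receptor substrates and Id genes added, had 10 of 30 genes with a TSS in a member. These were the MAP kinase phosphatase gene Dusp6, the receptor tyrosine kinase signalling inhibitors Spred2 and Spry2, the pseudokinase genes Trib1 and Trib2, the cytokine signalling inhibitor Socs1, the insulin receptor substrates Irs1 and Irs2, the kinase gene Sik1 and Id4, an inhibitor of bHLH factors. Irs2 measured 3451 and 4135 bp in replicates 1 and 2, Trib2 3225 and 3090 bp, Socs1 3124 and 2823 bp and Dusp6 2965 and 3273 bp. All 30 had a TSS in some hotspot of each library, and 14 had one in a comparison hotspot.

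Of 29 immediate early genes, which are transcribed within minutes of a stimulus without new protein synthesis, 6 were in members, namely Egr1, Jun, Jund, Klf10, Myc and Nr4a3. Egr1 spanned 2310 and 2868 bp, Jund 2208 and 2221 bp and Nr4a3 2561 and 2222 bp in replicates 1 and 2. The Kruppel-like factor family had 4 of 16 genes in members (Klf7, Klf10, Klf12 and Klf13), with Klf13 at 3119 and 3166 bp. Klf10 is counted in both groups.

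Chromatin and corepressor genes were in members for 8 of 33, among them Arid1a, Brd2, Chd4, Ep300, Kmt2a, Sin3a and Smarca2. Arid1a, a subunit of the BAF complex, had 2708 and 2583 bp and Kmt2a, a histone H3 methyltransferase, 2955 and 3344 bp. Housekeeping genes were in members for 4 of 16 (Actb, Gapdh, Ptma and Ywhaz), with Actb at 2841 and 2731 bp and Gapdh at 2037 and 2547 bp. Chaperone and ubiquitin genes gave 3 of 19 (Hspa8, Hsp90ab1 and Hsp90b1), and RNA-binding and splicing regulators 4 of 29 (Hnrnpa2b1, Hnrnpk, Nova1 and Srsf2).

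Developmental transcription factors had some members. SOX factors gave 3 of 18: Sox4 (2612 and 3687 bp in replicates 1 and 2), Sox11 (2955 and 3065 bp) and Sox12, which are the group C factors of neuronal differentiation. POU factors gave 3 of 13 (Pou2f1, Pou3f2 and Pou3f3). Forebrain and cortex regulators gave 2 of 26, among them Tle4, a corepressor of deep-layer neurons, at 2527 and 2643 bp. Tle4 was one of the strongest members, with −log10 FDR of 203.5 and 263.2. Forkhead genes as a family gave 3 of 41, glial lineage factors 2 of 15 (Id4 and Nfib), interneuron factors 1 of 14 (Maf) and Zic and Irx factors 0 of 10. Of the 10 Zic and Irx factors, 4 had a TSS in a replicate 1 hotspot. Non-clustered protocadherins gave 3 of 10 (Pcdh7, Pcdh10 and Pcdh17), and the whole protocadherin family 3 of 66.

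Synaptic genes gave 1 of 23 (Nlgn2, the neuroligin of inhibitory synapses, at 2102 and 2203 bp). Ion channels and transmitter receptors gave 2 of 26, among them Grin2a, a subunit of the NMDA receptor, at 2888 and 3191 bp in replicates 1 and 2. Potassium channel genes gave 2 of 92 (Kcnn2 and Kcnq5) and kinesin genes 3 of 38 (Kif1a, Kif22 and Kif26b). Wnt and Notch pathway genes gave 2 of 28, the Frizzled receptors Fzd1 and Fzd8.

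Cytosolic ribosomal protein genes gave 1 of 78 (Rpl7) although 75 of the 78 had a TSS in a hotspot of each library. Proteasome genes gave 0 of 38, with 37 in replicate 1 hotspots. Oxidative phosphorylation genes gave 3 of 90, histone genes 2 of 67, both in the member of Hist1h1e, and zinc finger genes named Zfp 6 of 385. Olfactory receptor genes gave 0 of 1127, cytochrome P450 genes 0 of 100 and Hox genes 0 of 39. Few of these had a TSS in any replicate 1 hotspot, namely 4, 21 and 1. Liver genes gave 0 of 10, and myelin, microglia and endothelial genes 0 of 11, 0 of 12 and 0 of 11. Of these, 1 liver, 5 myelin, 8 microglia and 5 endothelial genes had a TSS in a replicate 1 hotspot. Of 10 skeletal muscle genes only Mylpf was counted, and its member at 2110 and 2145 bp also holds a TSS of its neighbour Tbc1d10b.

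**Figure D5:**
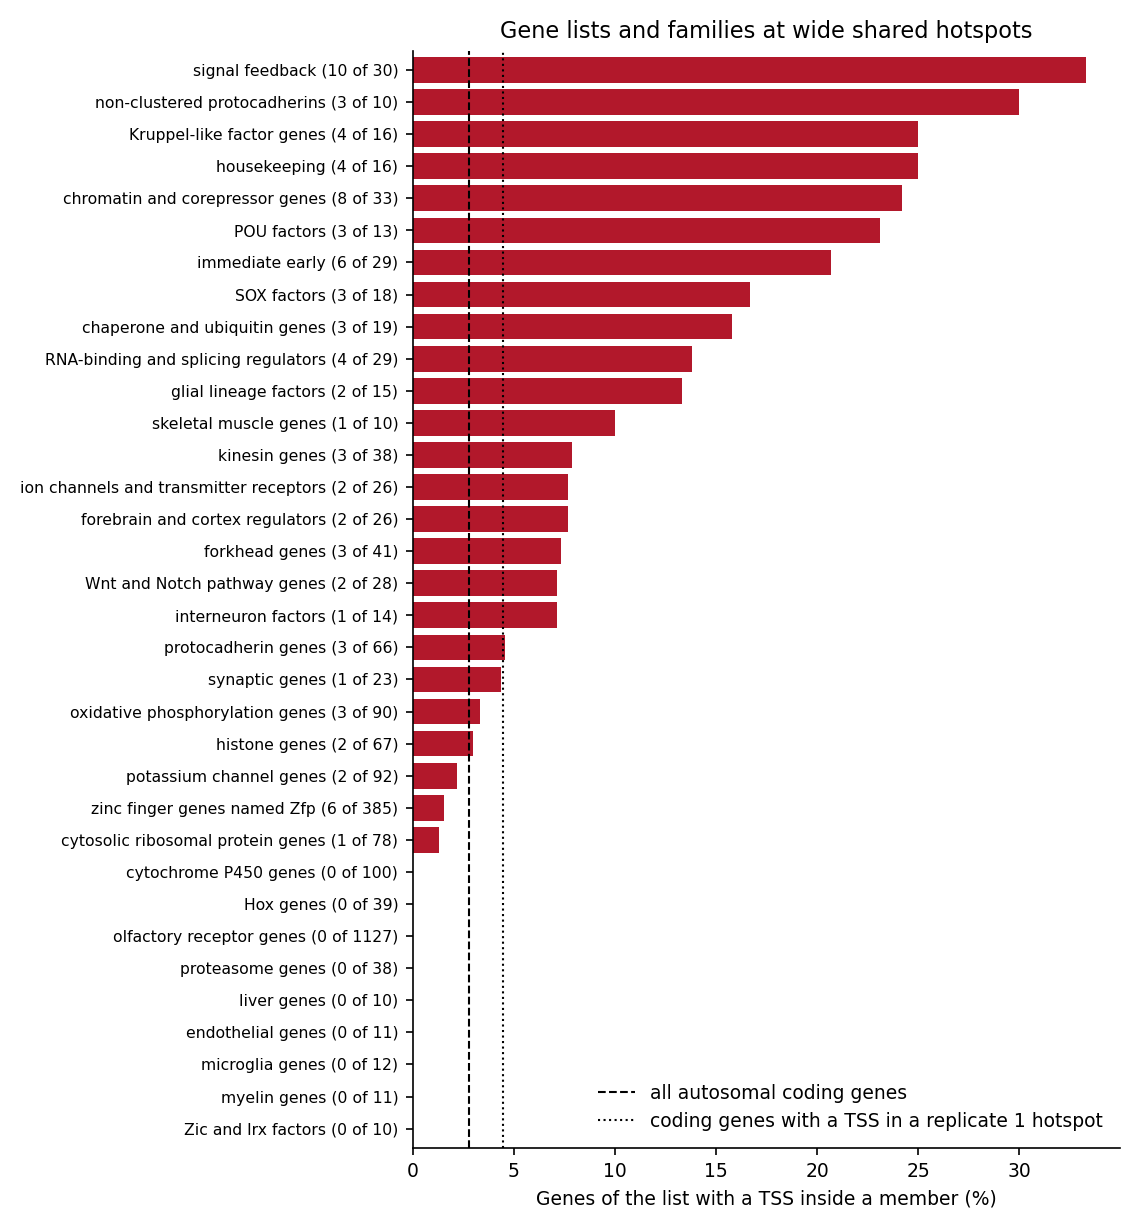
Share of each gene list or family (bars, %) with a TSS inside a member, with counts beside each name, the dashed line at 2.79% of all autosomal coding genes and the dotted line at 4.47% of those with a TSS in a replicate 1 hotspot. The list of signalling regulators (signal feedback) has the longest bar, at 33.3%, and 9 lists or families have none.

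Of the 14 members with no TSS inside the replicate 1 hotspot, 6 had one less than 1 kb away and 12 had a CpG ratio over 0.5. Among these were second domains beside the promoter of genes that also had a member at the TSS. At Pcdh10 the domain downstream of the promoter measured 2276 and 2820 bp, 647 bp from the promoter member of 3045 and 3021 bp. It was weak, with −log10 FDR of 4.76 and 4.39, beside 63.1 and 59.4 at the promoter. At Sox4 a domain of 2354 and 2355 bp lay 4021 bp from the nearest TSS, with −log10 FDR of 33.2 and 26.7. At Tnrc18 a domain of 2234 and 3039 bp lay 950 bp from the promoter member.

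The widest without a TSS in the replicate 1 hotspot was at Maml3, a coactivator of Notch signalling. That member measured 2866 and 4284 bp in replicates 1 and 2, and its replicate 1 hotspot lay 770 bp from the nearest TSS. The others with a TSS less than 1 kb away were Fjx1, Id2, Mex3b and Pisd-ps2, besides Pcdh10. In replicate 2 the wider hotspots at Maml3, Fjx1 and Mex3b extended further upstream, past the distance to the nearest TSS. The lack of a TSS at these genes thus applies to the replicate 1 intervals. Pura, Kdm6b and the long noncoding Lncppara had nearest TSSs 4765, 3678 and 15884 bp away.

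Of the 14, 4 lay more than 5 kb from a TSS, and their strongest peaks differed in density. At Lncppara it had 4.73 in replicate 1 and 2.5 in replicate 2. The one nearest Irf2bp2, at chr8:126666231-126668326, lay 72245 bp from that TSS and held no CpG-rich stretch. Its strongest peak had a density of 14.3 in replicate 1 and 10.9 in replicate 2, and the next 2.58 and 1.92. At chr13:84347062-84349191, 6949 bp from a TSS of Gm26927, the strongest peak had 12.6 and 7.88. At chr6:145339935-145342242, 23327 bp from a TSS of Gm15707, it had 7.05 and 4.19.

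In all, 18 consensus motifs were searched on both strands in 300 bp windows at the strongest peak, and matches of different motifs may overlap. CCAAT was present in 46.5% of 523 member windows in replicate 1 and 46.1% in replicate 2, against 38.8% and 40.8% in the comparison hotspots. Over all autosomal hotspots of replicate 1 with a peak the share was 34.3%. The ETS consensus CCGGAAG went the other way, with 8.6% and 8.83% in members, against 18.5% and 18.3%, and 8.64% over all. NRF1 (GCGCATGC) was in 4.21% of member windows, against 7.03%, and GC boxes (GGGCGG) in 79.3%, against 77.2%, in replicate 1. The strongest peak lay a median of 153 bp from the nearest TSS in members, against 64 bp, and the part of this distance in the shares was not tested. The POU octamer ATGCAAAT was in 2.49% of member windows, against 1.07%, in replicate 1. AP-1 (TGANTCA) was in only 4 member windows in replicate 1 (0.765%, against 2.89%) and 8 in replicate 2 (1.54%, against 3.29%), and at hotspot midpoints of replicate 1 it was in 2.86% of members, against 2.07%. The neuronal E-box CAGATG was in 7.27%, against 8.07% and 22.9% over all autosomal hotspots.

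The higher share of CCAAT in members was not seen in other windows, whereas the lower share of ETS was. From 250 bp upstream to 50 bp downstream of the most upstream TSS, CCAAT was in 35.8% of 330 member windows, against 37.8% of 4228, and ETS in 7.88%, against 13.6%. With 1 window at every replicate 1 peak, CCAAT was in 30.1%, against 31.8%, and ETS in 5.80%, against 14.2%. At hotspot midpoints CCAAT was in 23.3%, against 23.8%, and ETS in 7.25%, against 13.0%.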

How the data were processed

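DNase-seq interval lists of 2 libraries of mouse frontal cortex were used. Per the text file deposited with each sample, hotspots came from the reads and main peak lists, FDR tracks and footprints from filtered alignments, per library and on mm10. No aligner or caller is given in the sources used here. The hotspot value is the highest −log10 FDR, per the file headers. Peaks carry a cleavage density, a depth-normalised signal deposited by the authors. The FDR tracks are a deposited p-value column holding bases under 0.05, and the footprint lists hold the authors' threshold of 0.01 in every line of their p-value column. The mice are an F1 cross and the reference is C57BL/6J, so reads of that allele may map more readily, which was not examined.

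Members were selected as stated at the start. The main peak list was recognised by its peaks all holding a base with FDR under 0.001. Peaks, footprints and TSSs (GENCODE vM21, all transcripts) were counted by midpoint or position inside the hotspot. Composition came from GRCm38.p6, and no interval ran past a chromosome end. Lists of 398 symbols matched 386 autosomal coding genes, and 14 families were taken by symbol. Members and lists were chosen with earlier results of these data known. Members named are the 12 widest, the 8 with most shared peaks, those without a TSS, those at the threshold, list genes, and the extremes of CpG ratio and width ratio. Some genes of the lists and 1 sequence are not reported here. No p-value was computed. Tools were Python 3.11.15, numpy 2.4.6, pandas 2.3.3 and matplotlib 3.10.9, and the interval and motif functions passed 25 of 25 tests on simulated data. Alternatives were other widths, overlaps, joined hotspots, equal list size, single libraries, peak, footprint and TSS lists, and other windows.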

Additional observations from a re-analysis of the deposited data

How the results depend on the processing

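Values below are over replicate 1 intervals unless stated, and a move means more than the SD between the libraries or, for counts, 1.5 times. The SD compares members with their replicate 2 partners, which are nearly the same regions. It was only 0.00171 for TSS positions and 9.05e-04 for the CpG ratio. A move in these can therefore be too small to show in the digits printed, and says little about spread between libraries. At a width of 1500 bp or more there were 1781 regions, with a TSS in 96.1%, 2.61 peaks, a CpG ratio of 0.764, 63.2% of the hotspot downstream of the TSS, 4.38 TSS positions, CCAAT in 42.2% and 1932 coding genes. At 2500 bp there were 165, with 99.4%, 4.45 peaks, 0.735, 62.7%, 4.28 positions, 51.5% and 179 genes, and at 3000 bp 62, with 100%, 5.21 peaks, 0.719, 69.4%, 4.42 positions, 50% and 66 genes. Members as defined had 65.5% downstream and a mean of 4.41 positions. With 50% reciprocal overlap the TSS share was 97.5%, positions 4.41 and CCAAT 46.8%, and with equal list size the TSS share was 97.5%, the CpG ratio 0.758 and positions 4.41. Joining hotspots across gaps of 150 bp or less gave 866 regions, a TSS share of 96.7%, a CpG ratio of 0.735, 4.31 positions, CCAAT in 43.8% and 931 genes.

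With width required in a single library, the count was 683 to 787, the TSS share 96.0 to 97.0%, peaks 3.26 to 3.56, the CpG ratio 0.739 to 0.752, footprints 5.87 to 7.16 per kb, the downstream share 65.1 to 65.4%, positions 4.20 to 4.34, CCAAT 43.6 to 45.1% and coding genes 740 to 850. TSSs of protein-coding transcripts alone lay in 94.1% of members, and within 1 kb in 98.5%. Peaks per member were 3.91 in the looser list, 4.07 and 4.31 in the read-derived lists, 3.12 in the stricter list and 3.27 with overlapping peaks joined. The CpG ratio of the central 500 bp was 0.862, footprints in the smaller other list of replicate 2 were 3.42 per kb, and the downstream share from the TSS nearest the strongest peak was 57.2%. CCAAT was in 23.3% of midpoint windows, 30.1% at each peak and 35.8% at the TSS. The cause of these moves was not tested, and joining peaks and the TSS windows were chosen after seeing the data. At 1500, 2500 and 3000 bp the 10 signal feedback genes became 18, 6 and 3, the 6 immediate early genes 13, 3 and 3, and the ETS share of 8.6% became 11.8, 4.24 and 3.23%. The chromatin list, at 8, became 21 at 1500 bp, 3 at 3000 bp and 13 with width required in replicate 2 alone. Synaptic genes, at 1, became 2, 0 and 0 at the 3 widths. Joined hotspots gave 12 immediate early and 2 synaptic genes. No paired analysis was possible because there is 1 group and no comparison between groups. Depth, not given, limits how far gaps of a few bases between hotspots can be read.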
